A study of Mus musculus with 4 samples.

Results

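Imprinted genes are mammalian genes that are transcribed mainly from the copy inherited from one parent. The 52 genes described here were mouse imprinted genes named by symbol, and members were the rows of the count tables that carried one of these symbols. Of the 54920 genes listed, 51 matched, and 46 of them had enough reads to be tested among 23952 genes. The symbol *Nespas* matched no row. RefSeq gives it as an older name of *Gnasas1*, whose row is described below outside the counts. By the parental copy assigned to them, 25 matched members were grouped as paternally expressed and 22 as maternally expressed. Another 4 (*Grb10*, *Ddc*, *Gnas* and *Blcap*) were grouped as dependent on tissue or isoform. Genes in the paternal and maternal groups may also be imprinted only in some tissues or isoforms, and allele use was not measured here.

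The study deleted *Cnot3*, which encodes a subunit of the CCR4-NOT complex that shortens the poly(A) tails of mRNAs, in mouse germ cells. RNA was sequenced in bulk from ID4-EGFP+ spermatogonia, sorted from testes at postnatal day 8 by the fluorescence of an *Id4-eGfp* reporter that marks cells enriched for spermatogonial stem cells. There were 2 control and 2 *Cnot3*-cKO libraries, with 40957899 and 43378493 reads assigned to genes in controls and 22192964 and 28019626 in *Cnot3*-cKO. The study describes its replicates as biological and more of them per group than the libraries analysed here. The labels do not say whether the libraries of a group came from separate animals, so p-values measure the spread between these samples, which may be technical. Both groups carried *Cnot3* flox/flox and *Id4-eGfp*, and both received 4-OHT, the active form of tamoxifen, from day 1 to day 3 after birth. Controls, labelled wild-type, lacked *Ddx4*-creER, and *Cnot3*-cKO mice carried it. *Ddx4*-creER is a tamoxifen-inducible Cre driven by a germ cell promoter, so somatic cells of the testis keep an intact *Cnot3* gene.

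Imprinting rests on DNA methylation that is set in the germ line and differs between sperm and egg. Most imprinted genes lie in clusters around such a methylated control region, and many clusters hold protein-coding genes expressed from one parental copy and long non-coding RNAs expressed from the other. Primordial germ cells erase the marks, and the male germ line sets new ones before birth at a small group of regions, which include those of the *H19* and *Igf2*, *Dlk1* and *Meg3*, and *Zdbf2* loci. Control regions of most other clusters are methylated in the egg and unmethylated in sperm. Spermatogonia therefore carry a paternal type of imprint on both chromosomes, whereas the somatic cells around them keep one of each type. Paternally expressed genes are often known as promoters of growth before birth and maternally expressed genes as its restraints. Counts per gene do not tell the parental copies apart, so all values below are total levels.

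*Cnot3* itself had 58.6 and 50.2 CPM (reads relative to a library total scaled by the TMM method, as in edgeR) in controls and 19.2 and 19.9 CPM in *Cnot3*-cKO. Both *Cnot3*-cKO libraries lay below both controls, as their labels say. Its log2 fold change stood at -1.48, with a standard error of 0.13 and an adjusted p of 1.48e-05. Unless an alternative setting is named, adjusted p-values come from the quasi-likelihood F test of edgeR and are adjusted over all tested genes by the Benjamini-Hochberg method. Ranges over alternatives also hold values of DESeq2. Germ cell identity was checked with markers. The RNA helicase gene *Ddx4* had 725, 702, 753 and 719 CPM in control 1, control 2, *Cnot3*-cKO 1 and *Cnot3*-cKO 2, the order used for every 4 values below. *Dazl*, which encodes a germ cell RNA-binding protein, had 2337, 2631, 2021 and 2261 CPM. Both genes were abundant in every library. The reporter's own gene *Id4* had 20.6, 19.7, 36.2 and 46.3 CPM, higher in both *Cnot3*-cKO libraries than in both controls (log2 fold change 1.04, standard error 0.14, adjusted p = 0.000405). *Gfra1*, the receptor for the stem cell factor GDNF, had 95.6, 90.9, 168 and 180 CPM. *Zbtb16*, a transcription factor of undifferentiated spermatogonia, had 435, 364, 242 and 211 CPM. Of these, *Id4* and *Gfra1* were higher and *Zbtb16* lower in *Cnot3*-cKO, with no overlap between groups.

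Few imprinted genes differed by more than 2-fold, and more of them differed by less. A gene was called at an adjusted p under 0.01 with a fold change above 2. Under that rule 1 of the 46 tested members was higher in *Cnot3*-cKO (*Sgce*), where 4.03% of all tested genes were called higher, and 1 was lower (*Grb10*), where 0.735% of all tested genes were called lower. The count of members called higher was not stable, at 1 to 4 when single libraries were left out (4 without control replicate 1, and *Rtl1* in place of *Sgce* without *Cnot3*-cKO replicate 1) and 0 by glmTreat, a test against a 2-fold change. *Grb10* was called lower in every alternative but glmTreat. At an adjusted p under 0.05 whatever the fold change, 12 members were higher, which is 26.1% of those tested beside 11.1% of all tested genes. Under the same rule 4 members were lower, 8.70% of those tested beside 9.46% of all tested genes. The median log2 fold change was 0.19 over the tested members (0.10 to 0.37 over the alternative settings) and 0.01 over all tested genes. No test of the set was made.

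By parental copy, 5 of 23 tested paternally expressed members were higher at an adjusted p under 0.05 and 2 were lower (21.7% and 8.7%). Of all tested genes, 11.1% were higher and 9.46% lower under that rule. Of 19 tested maternally expressed members, 6 were higher (31.6%) and 0 lower. Among these 6 are *Meg3*, *Rian* and *Mirg*, neighbours on the same strand of the same cluster, which may not be independent of each other. Of the 4 tissue- or isoform-dependent members, 1 was higher and 2 were lower. The median log2 fold change was 0.07 for paternally and 0.34 for maternally expressed members, but the paternal value was not stable. Leaving out any 1 library put it between 0.14 and 0.19, with the maternal median between 0.25 and 0.48. With a mean count of at least 50 the medians were 0.34 and 0.37, nearly the same for both, and without an expression filter they were 0.04 and 0.23. Taken as sums, paternally expressed members had 635, 547, 636 and 664 CPM and maternally expressed members 967, 978, 1083 and 1105 CPM. In both sets the *Cnot3*-cKO sums lay above both controls, but the paternal sums of control 1 and *Cnot3*-cKO 1 were nearly equal (635.2 and 635.6 CPM). Single genes weigh heavily in such sums. *Kcnq1ot1* alone had 274, 212, 246 and 264 CPM of the paternal sums, and *Igf2r* had 316, 326, 305 and 298 CPM of the maternal sums. The share of assigned reads that fell to the 51 members was 0.174% and 0.165% in controls, against 0.185% and 0.191% in *Cnot3*-cKO.

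**Figure D1:**
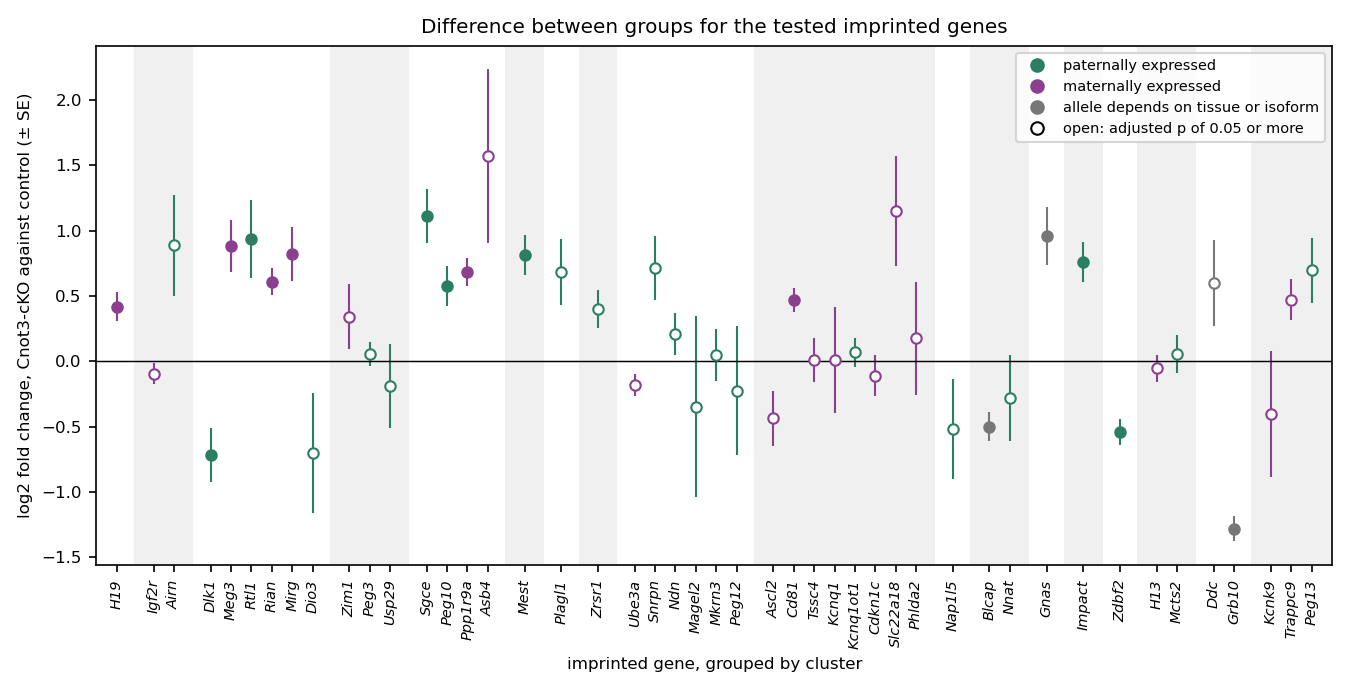
Log2 fold change of *Cnot3*-cKO against control (vertical axis, with standard error) for the 46 tested imprinted genes, grouped by cluster on shaded bands and ordered by position within a cluster. Filled points passed an adjusted p of 0.05 and open points did not; *Grb10* lies lowest at -1.28, and *Meg3*, *Rian* and *Mirg* lie between 0.61 and 0.88 while the paternally expressed genes of their cluster lie on both sides, *Rtl1* at 0.94 and *Dlk1* at -0.72.

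Markers of somatic testis cells moved with the groups. Of 16 tested Sertoli cell genes 13 were called higher and 0 lower, and their summed level was 420, 433, 1268 and 1255 CPM. The most abundant gene of each list is the one with the highest mean over the 4 libraries per kilobase of exon, and its level is given in CPM, in which longer genes may be higher. For Sertoli cells this was *Clu*, which had 151, 145, 479 and 479 CPM. Of 7 tested Leydig cell genes 5 were called higher and 0 lower, with sums of 385, 336, 882 and 939 CPM, and *Hsd3b1*, the highest per kilobase, had 287, 248, 655 and 711 CPM. *Insl3*, a defining Leydig cell gene that shares 64.8% of its exon bases with *Jak3*, was at 0 in every library. All 9 macrophage genes were called higher, with sums of 295, 188, 652 and 534 CPM, and *Lyz2*, the highest per kilobase, had 66.6, 47.1, 135 and 109 CPM. In these 3 lists both *Cnot3*-cKO sums lay above both controls.

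Of 7 tested endothelial genes 2 were called higher, with sums of 39.7, 35.1, 54.8 and 58.4 CPM, and *Tek*, the highest per kilobase, had 10, 7.62, 11.2 and 13.4 CPM. None of 8 interstitial stroma genes was called (4 were higher at an adjusted p under 0.05), with sums of 524, 496, 610 and 735 CPM and *Col3a1* as the highest per kilobase at 212, 204, 265 and 322 CPM. No peritubular myoid gene of 8 was called either, and 1 was higher and 1 lower at an adjusted p under 0.05. Each is 12.5% of that list, near the 11.1% higher and 9.46% lower among all tested genes. The sums of that list were 215, 175, 133 and 139 CPM, most of it from *Ptch1*, also the highest per kilobase, at 168, 123, 81.5 and 80.7 CPM. Without *Ptch1* the sums were 47.3, 52.6, 51.8 and 58.1 CPM, which overlapped between groups, and over the whole list log2 fold changes had a median of 0.11. The gene that passed as higher was *Acta2*, smooth muscle actin, at 5.41, 5.65, 9.13 and 12.1 CPM (log2 fold change 0.94, adjusted p = 0.00828). Apart from *Insl3*, no marker of these 6 lists was at 0 in every library. In bulk RNA, more cells of a type and more RNA per cell cannot be told apart. Imprinted genes are active in many somatic cells, and the part of these cells in the results for imprinted genes was not tested.

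The germ cell lists moved less or the other way. The 12 pan-germ cell genes summed to 6494, 6964, 5975 and 6228 CPM, with *Dazl* the most abundant per kilobase. None of them was called. At an adjusted p under 0.05, 4 were lower (*Piwil2*, *Mov10l1*, *Tdrd9* and *Dppa3*) and 1 was higher (*Hormad1*). These are 33.3% and 8.33% of the list, beside 9.46% and 11.1% of all tested genes. The 18 genes of undifferentiated spermatogonia summed to 1886, 1683, 1412 and 1437 CPM, with *Lin28a* as the highest per kilobase at 419, 409, 199 and 191 CPM, and 2 of them were called higher and 2 lower. That list did not move as a whole, with 6 genes higher and 5 lower at an adjusted p under 0.05 (33.3% and 27.8% of the list). Its log2 fold changes had a median of 0.13. Of 7 progenitor genes 4 were called lower, with sums of 248, 297, 190 and 198 CPM and *Sohlh1* as the highest per kilobase at 109, 146, 109 and 116 CPM. Of 8 genes of differentiating spermatogonia 3 were called lower, with sums of 897, 965, 622 and 632 CPM and *Sohlh2* as the highest per kilobase over the 4 libraries at 119, 125, 82.6 and 81.4 CPM. Both *Cnot3*-cKO sums lay below both controls in each of these 4 lists. *Nanos3* stands in the undifferentiated and the progenitor list.

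**Figure D2:**
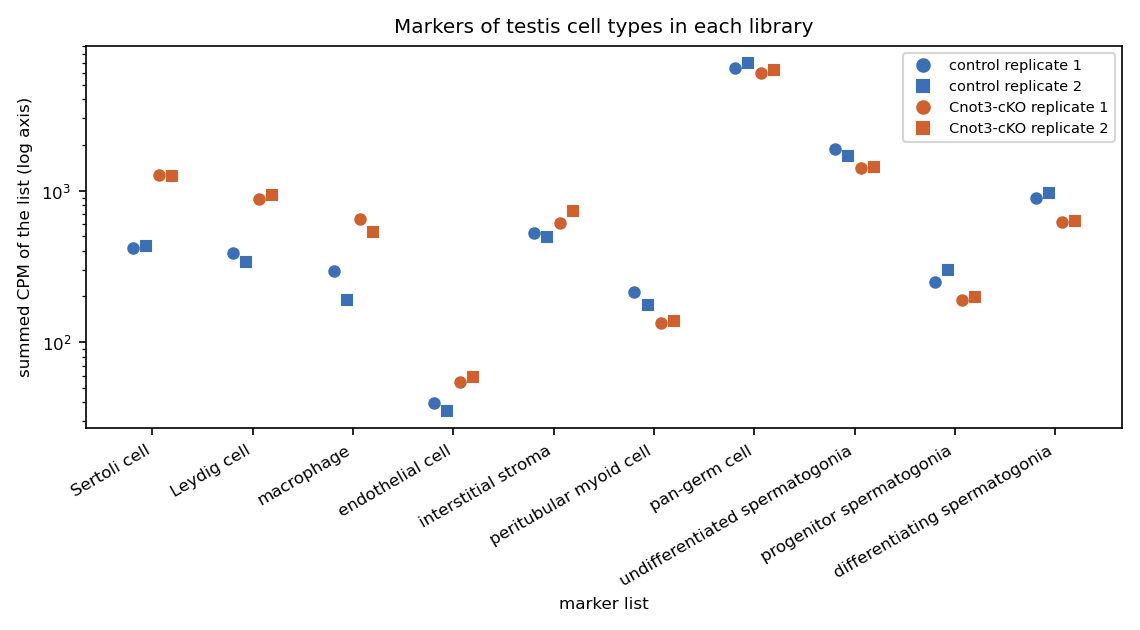
Summed CPM (vertical axis, logarithmic) of each marker list in each of the 4 libraries, with circles for replicate 1 and squares for replicate 2. The Sertoli cell sums are 420 and 433 in controls and 1268 and 1255 in *Cnot3*-cKO, and the pan-germ cell sums lie between 5975 and 6964 in all 4.

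Promoter sequences of the members were searched for a hexamer known from imprinting. ZFP57, a zinc finger protein, is known to bind the methylated hexamer TGCCGC in imprinting control regions and to keep their methylation through early development. RefSeq promoter windows (build GRCm38.p6, 250 bases before to 50 bases after a transcription start) matched 41 of the 51 members with 59 windows. The hexamer TGCCGC, or GCGGCA on the other strand, stood in 15 windows, 25.4%, beside 11.6% of all 32851 RefSeq windows. Some windows overlap, such as those of *Snrpn* and *Snurf*, which are the same, and 2 of *Mest*. With overlapping windows counted once the hexamer stood in 13 of 55, 23.6%, beside 10.9% of all 29061. The median number of CpG dinucleotides was 13 in the members' windows and 7 in all windows. The hexamer itself holds a CpG, and the shares were not matched for CpG number, so they do not show an excess of the hexamer beyond it. The windows are promoters and were not chosen as imprinting control regions. Of the 16 members at an adjusted p under 0.05, 11 had a window, and 4 of these genes held the hexamer. Among all 41 members with a window, 14 held it, a similar share. One window of each is printed here 5' to 3' on the gene's strand, with the hexamer on either strand in capitals. The *Grb10* window is chr11:12037371-12037670 on the reverse strand, with 45 CpG and 1 match. The *Mest* window is chr6:30737803-30738102 on the forward strand, with 17 CpG and 2 matches. The *Meg3* window is chr12:109540746-109541045 on the forward strand, with 13 CpG and 1 match, and the *Zdbf2* window is chr1:63200108-63200407 on the forward strand, with 15 CpG and 3 matches. That *Zdbf2* window lies within *Gpr1* (63182691 to 63214543), upstream of the *Zdbf2* gene body annotated by GENCODE M21. A match is a description of letters, and binding and methylation were not measured in these cells.
*Grb10*: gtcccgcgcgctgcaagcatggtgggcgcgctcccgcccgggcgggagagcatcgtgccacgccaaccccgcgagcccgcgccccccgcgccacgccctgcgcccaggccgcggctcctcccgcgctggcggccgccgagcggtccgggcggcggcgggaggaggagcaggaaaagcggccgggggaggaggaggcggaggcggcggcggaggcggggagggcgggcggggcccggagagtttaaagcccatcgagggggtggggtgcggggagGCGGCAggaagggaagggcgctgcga
*Mest*: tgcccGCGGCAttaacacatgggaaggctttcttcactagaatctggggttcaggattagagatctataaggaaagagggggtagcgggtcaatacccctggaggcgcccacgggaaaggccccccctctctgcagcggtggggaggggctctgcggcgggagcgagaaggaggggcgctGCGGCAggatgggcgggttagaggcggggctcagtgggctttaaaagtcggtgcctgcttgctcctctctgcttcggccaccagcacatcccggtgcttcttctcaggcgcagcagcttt
*Meg3*: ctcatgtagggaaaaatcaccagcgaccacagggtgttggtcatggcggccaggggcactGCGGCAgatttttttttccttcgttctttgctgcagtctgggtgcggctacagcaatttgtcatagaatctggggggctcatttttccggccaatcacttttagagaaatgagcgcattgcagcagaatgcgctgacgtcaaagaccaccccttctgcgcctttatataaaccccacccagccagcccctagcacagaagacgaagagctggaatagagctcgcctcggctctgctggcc
*Zdbf2*: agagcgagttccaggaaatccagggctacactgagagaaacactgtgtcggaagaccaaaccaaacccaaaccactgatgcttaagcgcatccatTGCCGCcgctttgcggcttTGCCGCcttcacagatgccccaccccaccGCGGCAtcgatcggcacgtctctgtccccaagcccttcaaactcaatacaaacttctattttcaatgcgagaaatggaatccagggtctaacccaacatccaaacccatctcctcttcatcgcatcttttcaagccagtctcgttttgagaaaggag

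*Grb10* was the imprinted gene with the lowest adjusted p. It encodes an adaptor protein that restrains signalling from the insulin and IGF1 receptors, and it is expressed from the maternal copy in most tissues and from the paternal copy in neurons. It lies on chromosome 11 of GRCm38, from 11930508 to 12038683, and its CpG-rich promoter is printed above. The 4 libraries had 112, 115, 46.1 and 47.4 CPM. Replicates lay close together, and both *Cnot3*-cKO libraries were far below both controls. Its fitted level was 2.43-fold lower (log2 fold change -1.28, standard error 0.10, adjusted p = 4.86e-06). A test against a fold change of 2 itself (glmTreat) did not call it. Its neighbour *Ddc*, the enzyme aromatic L-amino acid decarboxylase, had 1.61, 2.09, 2.47 and 3.14 CPM and did not pass (adjusted p = 0.234).

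*Gnas* encodes the stimulatory G protein alpha subunit from a locus with several promoters, some used from one parental copy. It had 6.22, 4.53, 10.5 and 10.4 CPM, and the groups were apart, with *Cnot3*-cKO higher (log2 fold change 0.96, standard error 0.22, adjusted p = 0.00842). Of its exon bases, 22.0% are shared with genes on the opposite strand, mainly *Gm20721*, which had 0, 1, 2 and 2 reads. How reads over more than 1 gene were counted is not known here, so the *Gnas* count may be low. *Gnasas1*, the antisense RNA of the locus, had 16.5, 12.8, 14.7 and 16.3 CPM, and the groups overlapped (adjusted p = 0.807). GENCODE M21 holds it as *Nespas*, with 38.5% of its exon bases shared with other genes, mainly *Gnas*. *Blcap*, a small conserved protein gene with *Nnat* in its intron, had 47.9, 47.8, 32.8 and 34.9 CPM. Both *Cnot3*-cKO libraries were lower (log2 fold change -0.50, standard error 0.11, adjusted p = 0.00819). Without *Cnot3*-cKO replicate 1 its log2 fold change was -0.47 with an adjusted p of 0.0713, the highest of a range from 0.00109 over 12 alternative settings. *Nnat*, a paternally expressed membrane proteolipid of neurons, had 4.44, 2.87, 2.25 and 3.73 CPM, and its groups overlapped.

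Among paternally expressed genes, the neighbours *Sgce* and *Peg10* both rose. They start within a shared promoter region on chromosome 6 and run in opposite directions, *Sgce* from 4747207 on the reverse strand and *Peg10* from 4747306 on the forward strand. *Sgce* encodes epsilon-sarcoglycan, a membrane glycoprotein, and had 5.70, 5.01, 12.5 and 10.7 CPM. Each *Cnot3*-cKO value exceeded each control value (log2 fold change 1.11, standard error 0.20, adjusted p = 0.00239), and the fitted level was 2.17-fold higher. Without *Cnot3*-cKO replicate 1 its log2 fold change was 0.99, which is under the limit of 2-fold. *Peg10*, a gene derived from a retrotransposon and needed for the placenta, had 29.2, 21.7, 40.3 and 35.6 CPM. Its groups did not overlap either (log2 fold change 0.57, standard error 0.15, adjusted p = 0.0195). *Peg10* did not pass without control replicate 2 (log2 fold change 0.36, adjusted p = 0.0636) or without *Cnot3*-cKO replicate 1 (0.48, adjusted p = 0.0944), with a range from 6.01e-06 to 0.0944 over 12 alternatives.

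*Mest* encodes a protein with an alpha/beta hydrolase fold and is widely expressed in the embryonic mesoderm. It had 21.8, 17.8, 38.0 and 31.8 CPM. Each *Cnot3*-cKO library was above each control (log2 fold change 0.81, standard error 0.15, adjusted p = 0.00254). The gene shares 23.1% of its exon bases with *Copg2* on the opposite strand, and *Copg2* had 187, 214, 188 and 182 CPM with no passing difference (adjusted p = 0.432). *Impact*, on chromosome 18, encodes an inhibitor of the activation of the stress kinase GCN2. It had 28.6, 22.6, 38.1 and 48.5 CPM, higher in both *Cnot3*-cKO libraries (log2 fold change 0.76, standard error 0.15, adjusted p = 0.00448).

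*Zdbf2* was one of 2 paternally expressed genes that fell. It encodes a zinc finger protein known for a part in growth after birth, and its control region is methylated in the male germ line. It had 80.8, 78.2, 53.5 and 56.0 CPM. Replicates were close, and both *Cnot3*-cKO libraries lay below both controls (log2 fold change -0.54, standard error 0.10, adjusted p = 0.00248). All 12 alternative settings kept an adjusted p under 0.05, the highest being 0.0204. *Gpr1*, the neighbour whose gene body holds the printed *Zdbf2* window, had 0.694, 0.499, 0.661 and 0.279 CPM, and its groups overlapped.

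The *Dlk1* and *Meg3* cluster on chromosome 12 held the most members that passed, 4 higher and 1 lower of 6 tested. These are 66.7% and 16.7% of the cluster, beside 11.1% and 9.46% of all tested genes. *Dlk1*, a paternally expressed membrane protein of the Notch ligand family, had 11.3, 11.8, 8.07 and 6.03 CPM. Both *Cnot3*-cKO libraries were lower (log2 fold change -0.72, standard error 0.21, adjusted p = 0.0269). Without *Cnot3*-cKO replicate 2 its log2 fold change was -0.52 with an adjusted p of 0.205, and scaling to the pan-germ cell genes gave -0.57 and 0.0838, in a range from 0.00827 to 0.205 over 12 alternatives. *Rtl1*, another gene derived from a retrotransposon and expressed from the paternal copy, had 2.46, 3.35, 4.19 and 6.87 CPM. The *Cnot3*-cKO libraries were higher but far apart (log2 fold change 0.94, standard error 0.30, adjusted p = 0.0442). *Rtl1* did not pass without control replicate 1 (0.72, adjusted p = 0.0945) or without *Cnot3*-cKO replicate 2 (0.52, adjusted p = 0.368), with a range from 0.00244 to 0.368. An antisense transcript of the maternal copy is known at *Rtl1*, and its reads cannot be told apart here. *Dio3*, the thyroid hormone inactivating deiodinase, had 1.81, 1.52, 0.617 and 1.39 CPM with an adjusted p of 0.328.

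The maternally expressed RNAs of that cluster, *Meg3*, *Rian* and *Mirg*, lie in a row on one strand and have no known protein product. *Meg3* is a long non-coding RNA, *Rian* hosts small nucleolar RNAs and *Mirg* hosts microRNAs. *Meg3* had 25.0, 15.0, 37.6 and 36.2 CPM (log2 fold change 0.88, standard error 0.20, adjusted p = 0.00716). *Rian* had 90.4, 76.6, 123 and 132 CPM (log2 fold change 0.61, standard error 0.10, adjusted p = 0.00135). *Mirg* had 7.04, 5.51, 11.7 and 10.5 CPM (log2 fold change 0.82, standard error 0.21, adjusted p = 0.0148). In all 3, control 2 was the lowest library and the *Cnot3*-cKO values exceeded those of both controls. *Mirg* did not pass without *Cnot3*-cKO replicate 1 (0.73, adjusted p = 0.0604), the highest of a range from 0.000935. Leaving out single libraries moved *Meg3* between 0.55 and 1.29 on the log2 scale. Summed, the 3 RNAs had 122, 97.1, 173 and 178 CPM, and the paternally expressed *Dlk1*, *Rtl1* and *Dio3* had 15.5, 16.7, 12.9 and 14.3 CPM. The first sum was higher and the second lower in both *Cnot3*-cKO libraries.

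*H19* and *Igf2* share a control region that the male germ line methylates. *H19*, a maternally expressed long non-coding RNA and microRNA host, had 41.2, 44.7, 54.0 and 60.7 CPM. Its *Cnot3*-cKO values both exceeded the control values (log2 fold change 0.42, standard error 0.11, adjusted p = 0.0201). Without *Cnot3*-cKO replicate 2 the log2 fold change was 0.33 and the adjusted p 0.215, the highest of a range from 0.00311. The growth factor gene *Igf2*, normally paternal, held 12, 3, 6 and 1 reads and was not tested. It shares 64.5% of its exon bases with other genes, mainly *Gm49394*, which had 0 reads in every library. Reads from the shared bases may be missing from both *Igf2* and *Gm49394*.

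Other maternally expressed genes that rose were *Ppp1r9a* and *Cd81*. *Ppp1r9a*, in the *Peg10* cluster, encodes neurabin, which ties protein phosphatase 1 to actin, and had 89.5, 72.8, 127 and 133 CPM. The groups were well apart (log2 fold change 0.68, standard error 0.11, adjusted p = 0.000908). *Cd81*, a tetraspanin of the cell membrane at the edge of the *Kcnq1* cluster, had 70.5, 74.5, 99.7 and 102 CPM. It was higher in both *Cnot3*-cKO libraries (log2 fold change 0.47, standard error 0.09, adjusted p = 0.00368). The other *Peg10* cluster member tested, *Asb4*, had 0.446, 0.190, 0.705 and 1.19 CPM and did not pass (adjusted p = 0.118).

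**Figure D3:**
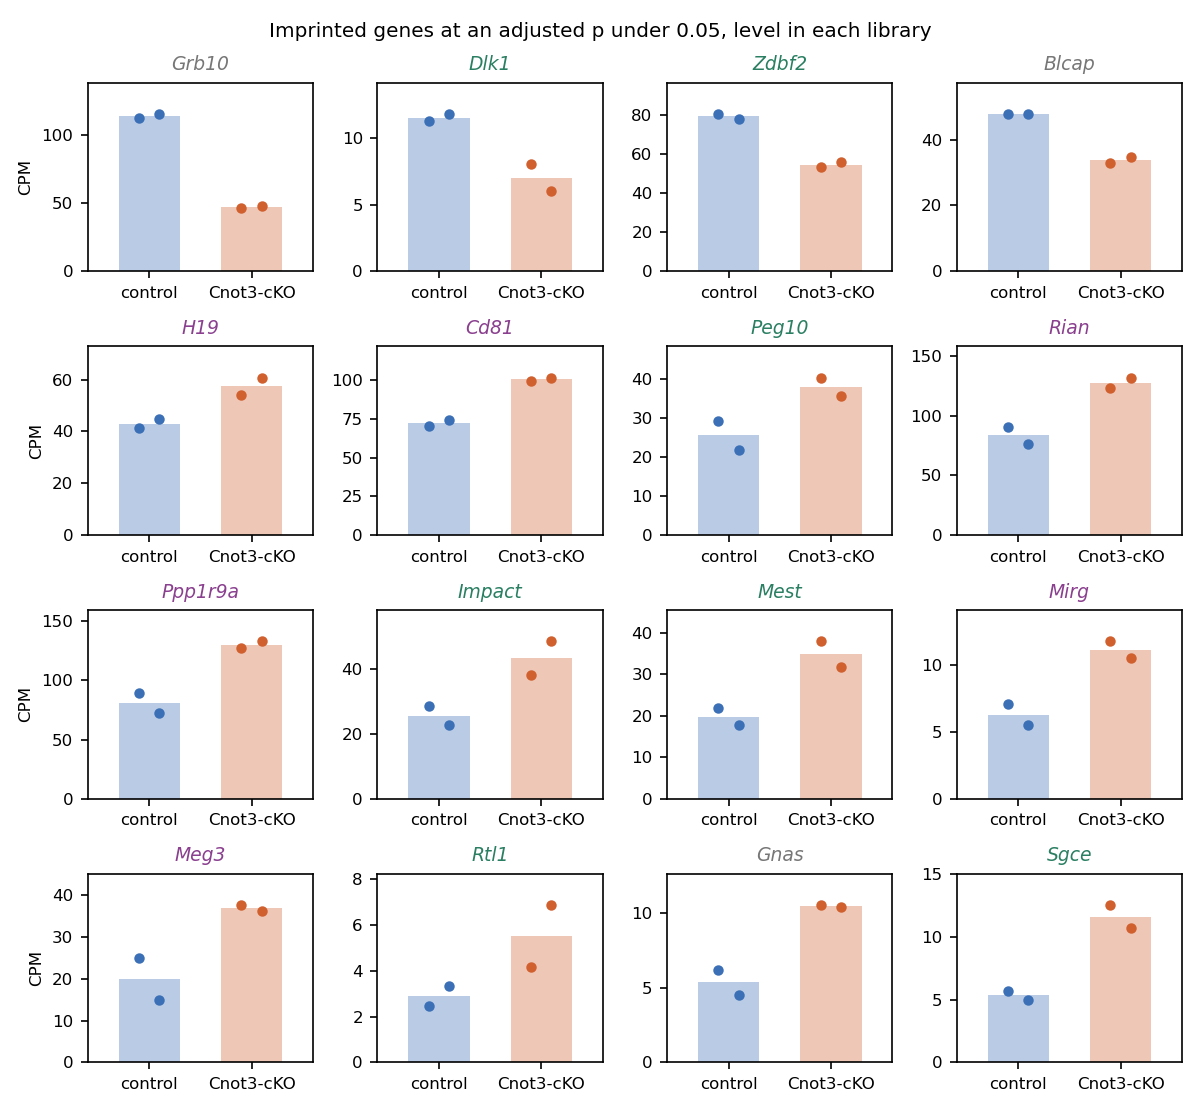
Level in CPM (vertical axes, from 0) of the 16 imprinted genes at an adjusted p under 0.05, with a point per library and a bar at the mean of the 2 libraries of each group. Gene names are green for paternally and purple for maternally expressed genes and grey for those that depend on tissue or isoform; *Grb10* falls from 112 and 115 to 46.1 and 47.4, and in every panel the points of the groups do not overlap, which follows in large part from choosing genes by this comparison.

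The remaining 30 tested members did not pass at an adjusted p under 0.05, with adjusted p from 0.0519 to 0.990. *Igf2r*, the mannose 6-phosphate receptor that clears IGF2, had 316, 326, 305 and 298 CPM (log2 fold change -0.09, standard error 0.08, adjusted p = 0.460). Under scaling to the pan-germ cell genes its log2 fold change turned to 0.05. Its antisense silencer RNA *Airn*, of the paternal copy, had 1.74, 1.04, 3.04 and 2.13 CPM, with an adjusted p of 0.129. *Ube3a*, a ubiquitin ligase of the *Snrpn* cluster, had 188, 203, 172 and 173 CPM (log2 fold change -0.18, adjusted p = 0.150), and it passed without control replicate 1 (-0.25, adjusted p = 0.0173, in a range up to 0.821). The *Cnot3*-cKO values of both *Igf2r* and *Ube3a* lay just below the controls, and *Ube3a* had an unadjusted p of 0.0487 that the adjustment over all genes raised. *Peg3*, a paternally expressed zinc finger protein of growth and maternal behaviour, had 83.1, 85.9, 87.9 and 88.3 CPM, nearly level over the 4 libraries (log2 fold change 0.06, standard error 0.09, adjusted p = 0.718).

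Further genes, which also included *Snrpn*, *Peg13*, *Ascl2* and *Airn*, passed only under other settings. *Trappc9*, a subunit of a vesicle tethering complex, had 22.0, 30.1, 33.6 and 38.7 CPM (log2 fold change 0.47, standard error 0.16, adjusted p = 0.0519). It passed in 9 of 12 alternatives, with adjusted p from 0.000132 to 0.237 and log2 fold changes from 0.25 to 0.71. *Zrsr1*, a splicing factor gene within *Commd1*, had 23.7, 20, 27.4 and 30.3 CPM (log2 fold change 0.40, standard error 0.14, adjusted p = 0.0677) and passed in 5, with log2 fold changes from 0.27 to 0.54. *Plagl1*, a zinc finger transcription factor, had 7.79, 4.58, 9.70 and 10.1 CPM (log2 fold change 0.68, standard error 0.25, adjusted p = 0.0736) and passed in 4, with log2 fold changes from 0.34 without control replicate 2 to 1.10 without control replicate 1 and adjusted p from 0.402 to 0.000495 in the same order. In these 3 genes the *Cnot3*-cKO values exceeded those of both controls. *Nap1l5*, of a histone chaperone family, had 2.75, 1.90, 1.19 and 2.02 CPM, and *Mcts2*, a retrogene within *H13*, had 19.3, 19.9, 19.4 and 21.4 CPM. The groups of *Nap1l5* (adjusted p = 0.391) and *Mcts2* (adjusted p = 0.830) overlapped.

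In the *Snrpn* cluster, 6 of 7 members were tested and 0 passed, beside 11.1% higher and 9.46% lower among all tested genes. Log2 fold changes in the cluster ran from -0.35 to 0.72. *Snrpn*, a spliceosomal protein gene, had 4.84, 4.51, 9.21 and 6.21 CPM (adjusted p = 0.0578), and 34.1% of its exon bases are shared with other genes, mainly *Gm38393*. *Gm38393* had 32.0, 26.8, 36.3 and 45.6 CPM, higher in both *Cnot3*-cKO libraries (log2 fold change 0.48, standard error 0.14, adjusted p = 0.0335). The *Snrpn* count may be low for this overlap, and reads of the 2 genes cannot be told apart. *Snurf* was at 0 in every library, and 100% of its exon bases lie in *Snrpn* exons. The MAGE family gene *Ndn* had 14.1, 16.1, 17.1 and 17.8 CPM (adjusted p = 0.406), and *Mkrn3*, a makorin ring finger gene, had 7.61, 8.81, 7.98 and 9 CPM (adjusted p = 0.903). *Magel2* had 0.645, 0.427, 0.573 and 0.279 CPM and *Peg12* 1.93, 1.14, 0.705 and 1.88 CPM. The groups were apart in *Snrpn* and *Ndn*, both higher in *Cnot3*-cKO, and overlapped in *Mkrn3*, *Magel2* and *Peg12*.

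In the *Kcnq1* cluster, 8 members were tested and *Cd81* alone passed, as higher. That is 12.5% of the cluster, near the 11.1% of all tested genes that passed as higher. *Kcnq1ot1*, the paternal long non-coding RNA that silences the cluster in other tissues, had 274, 212, 246 and 264 CPM (log2 fold change 0.07, adjusted p = 0.722). Its groups overlapped, and of the 12 alternatives it passed only without control replicate 1. The growth restraints *Cdkn1c*, which encodes the cell cycle inhibitor p57, and *Phlda2* had 17.3, 20.7, 17.3 and 18.0 CPM and 1.12, 2.66, 2.56 and 1.74 CPM. *Ascl2*, a transcription factor of trophoblast, had 9.13, 12.6, 8.02 and 8.06 CPM (log2 fold change -0.43, adjusted p = 0.173). *Tssc4*, *Kcnq1* and *Slc22a18* had adjusted p of 0.980, 0.990 and 0.0721, and *Slc22a18* had 1.02, 0.760, 1.68 and 2.27 CPM. *Kcnq1ot1* lies within *Kcnq1* on the opposite strand, and 30.7% of *Cdkn1c* exon bases are shared with other genes, mainly *Gm44732*, which had 0 reads.

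The last tested members were *Zim1* and *Usp29* beside *Peg3*, *H13*, the signal peptide peptidase gene that holds *Mcts2*, and *Peg13* and *Kcnk9* beside *Trappc9*. *Zim1*, *Usp29*, *H13*, *Peg13* and *Kcnk9* had log2 fold changes of 0.34, -0.19, -0.05, 0.70 and -0.40, and none passed. Of the members with a row, 5 were not tested: *Igf2*, *Snurf*, the organic cation transporter genes *Slc22a2* and *Slc22a3*, and the calcitonin receptor gene *Calcr*. None of these exceeded 12 reads in any library. Counts of *Mest*, *Ube3a* and *Cdkn1c*, which also share exon bases with other genes, carry the same doubt as those of *Igf2*, *Snurf*, *Gnas* and *Snrpn*. With 3 reads taken as the floor of detection, which covers counting error only, the depth allowed levels of 0.0744, 0.0712, 0.132 and 0.105 CPM to be seen.

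Per kilobase of exon, members spanned a wide range of levels. *Igf2r* was the highest in controls at 34.5 CPM per kilobase, followed by *Cd81* at 25.2, *Mcts2* at 21.5, *H19* at 17.4, *Blcap* at 15.7 and, after *Tssc4*, *Grb10* at 12.5. These were the 7 members above 10 CPM per kilobase, and 17 tested members were under 1. In *Cnot3*-cKO, *Cd81* had 34.9 and *Igf2r* 32.4 CPM per kilobase, and *Grb10* had 5.14. Maternally expressed and paternally expressed genes both occurred near the top and near the bottom of the range.

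**Figure D4:**
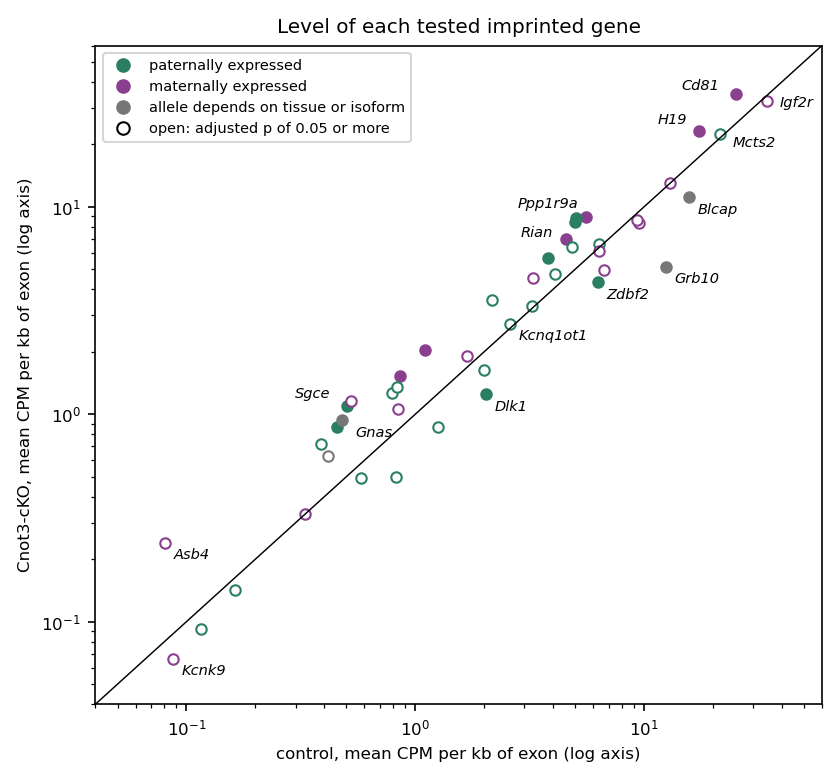
Mean level of each of the 46 tested imprinted genes in CPM per kilobase of exon, in controls (horizontal axis) and in *Cnot3*-cKO (vertical axis), both logarithmic, with a line of equality. *Igf2r* lies at 34.5 and 32.4, *Grb10* lies below the line at 12.5 and 5.14, and *Sgce* lies above it at 0.505 and 1.09.

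Genes known for setting, keeping or erasing imprints, among them DNA methyltransferases, chromatin proteins and maternal factors of the egg, formed a list of 25, of which 24 were tested. Of these, 1 was called higher (*Tet2*) and 0 lower, and at an adjusted p under 0.05 there were 5 higher and 5 lower (20.8% each). Of all tested genes, 4.03% were called higher, near the share of this list, and 11.1% and 9.46% passed the second rule as higher and lower. The list had its median log2 fold change at -0.07. *Tet1*, *Tet2* and *Tet3* encode dioxygenases that oxidise methylated cytosine. *Tet1* had 9.23, 6.98, 14.0 and 15.4 CPM (log2 fold change 0.86, standard error 0.20, adjusted p = 0.00803). *Tet2* had 15.4, 10.4, 26.3 and 26.7 CPM (log2 fold change 1.04, standard error 0.19, adjusted p = 0.00197). *Tet3* had 176, 150, 87.7 and 91.6 CPM (log2 fold change -0.86, standard error 0.10, adjusted p = 0.000108). Without control replicate 2 the log2 fold change of *Tet2* was 0.77, under the limit of 2-fold, so the only call of the list rests on that library. The groups did not overlap in any of the 3, with *Tet1* and *Tet2* higher and *Tet3* lower in *Cnot3*-cKO. The de novo methyltransferase gene *Dnmt3b*, which also stands in the differentiating list, had 195, 222, 134 and 131 CPM, lower in both *Cnot3*-cKO libraries (log2 fold change -0.66, standard error 0.09, adjusted p = 0.000362). The maintenance pair *Dnmt1* (709, 792, 767 and 709 CPM) and *Uhrf1* (266, 276, 255 and 266 CPM) had adjusted p of 0.882 and 0.687.

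*Zfp57*, whose hexamer was searched above, had 3.77, 3.09, 6.75 and 5.96 CPM, higher in both *Cnot3*-cKO libraries (log2 fold change 0.89, standard error 0.25, adjusted p = 0.0225). It did not pass without control replicate 2 (log2 fold change 0.74) or without *Cnot3*-cKO replicate 1 (0.79), where its fold change stayed about as large. Its co-repressor *Trim28* was abundant at 565, 662, 642 and 639 CPM, and its groups overlapped (adjusted p = 0.678). *Ehmt2*, a histone H3 lysine 9 methyltransferase gene, was lower in *Cnot3*-cKO at 383, 489, 293 and 305 CPM (adjusted p = 0.00314), and the insulator protein gene *Ctcf* had 136, 133, 107 and 111 CPM (log2 fold change -0.30, adjusted p = 0.0282). *Arid4a*, a chromatin protein gene, and *Kdm1b*, a histone demethylase gene needed for imprints in the oocyte, were higher at 0.54 and 0.28 on the log2 scale (adjusted p = 0.00887 and 0.0310). *Dppa3*, a protector of maternal imprints in the zygote and also a pan-germ cell marker, had 1.17, 1.02, 0.176 and 0.279 CPM (log2 fold change -2.22, adjusted p = 0.0227). These 4 genes did not pass in every alternative. *Ctcf* kept its direction but did not pass under 3 scalings, namely upper quartile (-0.26, adjusted p = 0.0569), library size (-0.24, 0.0756) and pan-germ cell genes (-0.16, 0.301), or without *Cnot3*-cKO replicate 1 (-0.28, 0.232) or 2 (-0.34, 0.128).

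*Arid4a* did not pass without *Cnot3*-cKO replicate 1 (log2 fold change 0.39, adjusted p = 0.132), and *Kdm1b* did not without *Cnot3*-cKO replicate 1 (0.30, 0.151) or 2 (0.24, 0.263). The fold change of *Dppa3* stayed about as large where its adjusted p missed 0.05, without control replicate 1 (-2.14, 0.0970), control replicate 2 (-2.33, 0.0651) and *Cnot3*-cKO replicate 1 (-1.97, 0.0650). The lowest adjusted p over the alternatives were 0.00594 for *Ctcf*, 3.30e-05 for *Arid4a*, 0.00238 for *Kdm1b* and 0.00446 for *Dppa3*.

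The insulin-like growth factor axis, on which *Igf2*, *Igf2r* and *Grb10* act, was a list of 20 genes with 19 tested. Of these, 6 were called higher and 1 lower, at a median log2 fold change of 0.36, and at an adjusted p under 0.05 there were 8 higher and 3 lower (42.1% and 15.8% of those tested). Of all tested genes, 4.03% were called higher and 0.735% lower, and 11.1% and 9.46% passed the second rule. The ligand gene *Igf1* had 28.0, 16.7, 43.8 and 49.5 CPM (log2 fold change 1.06, standard error 0.19, adjusted p = 0.00233). Its receptor gene *Igf1r* had 468, 423, 279 and 280 CPM (log2 fold change -0.67, standard error 0.08, adjusted p = 0.000160). The insulin receptor gene *Insr* had 17.4, 13.8, 32.8 and 31.7 CPM (log2 fold change 1.05, standard error 0.15, adjusted p = 0.000502). Ligand and insulin receptor were higher and the IGF1 receptor lower in both *Cnot3*-cKO libraries. The receptor substrates *Irs1* and *Irs4* were called higher at 1.08 and 1.01 on the log2 scale. Of the 6 genes called higher, 4 fell under the limit of 2-fold when single libraries were left out. Without control replicate 2 these were *Igf1* (0.73), *Irs4* (0.74) and *Insr* (0.88), without control replicate 1 *Irs1* (0.96), and without *Cnot3*-cKO replicate 2 *Igf1* (0.97), *Irs4* (0.97) and *Irs1* (0.996). *Irs4* was also under it without an expression filter (0.99). The substrate gene *Irs2* had 21, 19.8, 20.3 and 21.3 CPM, with overlapping groups (adjusted p = 0.917). The proteases *Pappa* and *Htra1*, which cleave IGF-binding proteins, were called higher at 1.55 and 1.53, and *Pappa2*, at 0.149, 0.214, 1.15 and 1.05 CPM, had 2.57 (adjusted p = 0.0148). *Igfbp5* was called lower at 8.16, 5.98, 1.37 and 2.30 CPM (log2 fold change -1.93, standard error 0.31, adjusted p = 0.000937). Of the other binding proteins, *Igfbp3* was higher at 0.83 (adjusted p = 0.00194) and *Igfbp2* lower at -0.59 (adjusted p = 0.0204). *Igfbp2* did not pass without control replicate 2 (-0.33) or without *Cnot3*-cKO replicate 1 (-0.51). *Pappa2* did not pass without control replicate 1, where its log2 fold change stayed about as large at 2.32.

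A list of 45 other genes reported as imprinted in the mouse had 40 tested, with 7 called higher and 0 lower. Of all tested genes, 4.03% were called higher and 0.735% lower. Their log2 fold changes had a median of 0.21. At an adjusted p under 0.05 there were 12 higher and 5 lower (30% and 12.5% of those tested, beside 11.1% and 9.46% of all tested genes). *Gatm*, which makes the creatine precursor guanidinoacetate, had 37.0, 37.4, 117 and 113 CPM (log2 fold change 1.63, standard error 0.10, adjusted p = 1.12e-06). *Axl*, a receptor tyrosine kinase gene, had 39.5, 32.6, 125 and 115 CPM (log2 fold change 1.73, standard error 0.12, adjusted p = 2.18e-06). Both were about level within a group and far higher in *Cnot3*-cKO. *Qpct*, *Phactr2*, *Osbpl5*, *Magi2* and *Pon2* were also called higher, at log2 fold changes from 1.18 in *Pon2* to 1.51 in *Magi2*. The call of *Pon2* was lost without control replicate 2 (0.90, adjusted p = 0.0105, in a range from 8.945e-06). At an adjusted p under 0.05, *Pon3*, *Casd1*, *Dcn*, *Pde4d* and *Eif2d* were higher at 1.12, 0.73, 0.64, 0.77 and 0.40. *Pon2*, *Pon3* and *Casd1* lie near *Sgce* and *Peg10* on chromosome 6, and *Dcn* is also in the stroma list.

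Of the 5 lower genes of that list, *Sfmbt2*, a polycomb protein gene, had 220, 201, 152 and 144 CPM (log2 fold change -0.51, adjusted p = 0.00140). *Dhcr7*, the last enzyme of cholesterol synthesis, had 57.6, 50.8, 32.3 and 32.7 CPM (log2 fold change -0.74, adjusted p = 0.000934). *Nap1l4*, a histone chaperone gene of the *Kcnq1* region, had 280, 298, 220 and 197 CPM (log2 fold change -0.47, adjusted p = 0.00250). Each was lower in both *Cnot3*-cKO libraries. *Begain*, next to *Dlk1* on chromosome 12, and *Jade1* had log2 fold changes of -0.80 and -0.37 (adjusted p = 0.0256 and 0.00635). Some genes of the list did not pass in every alternative, and all kept their direction. *Begain* and *Jade1* did not pass under scaling to the pan-germ cell genes (-0.65, adjusted p = 0.0681, and -0.23, adjusted p = 0.103). Neither passed without *Cnot3*-cKO replicate 1 (-0.81, 0.0586, and -0.37, 0.0624) or 2 (-0.80, 0.0702, and -0.38, 0.0532), nor did *Begain* without control replicate 2 (-0.65, 0.108).

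Without *Cnot3*-cKO replicate 2, *Pon3* (0.92, adjusted p = 0.0754), *Casd1* (0.60, 0.0738), *Dcn* (0.47, 0.0970) and *Pde4d* (0.64, 0.167) did not pass. Without control replicate 2 the same held for *Pde4d* (0.62, 0.119) and *Eif2d* (0.31, 0.0569), and without *Cnot3*-cKO replicate 1 for *Eif2d* (0.26, 0.372). The lowest adjusted p over the alternatives were 0.00460 (*Begain*), 2.49e-06 (*Jade1*), 0.00179 (*Eif2d*), 0.00340 (*Pon3*), 0.000674 (*Casd1*), 0.000208 (*Dcn*) and 0.0132 (*Pde4d*). Summed Sertoli, Leydig and macrophage markers were higher in both *Cnot3*-cKO libraries, and the part of those cells in the results for these lists was not tested.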

How the data were processed

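The authors deposited raw read counts per gene symbol for each library, from total RNA of sorted cells prepared with a strand-preserving kit. Their reads had passed a Phred cutoff of 20, were placed on mm10 by STAR, and were assigned to GENCODE M24 genes by featureCounts. How strand was set, and how a read over more than 1 gene was treated, is not given in the sources used here. Counts were compared between *Cnot3*-cKO and control with edgeR 4.0.16 in R 4.3.3 (TMM scaling, its default expression filter, quasi-likelihood F test, Benjamini-Hochberg adjustment over all tested genes), without covariates. Members, lists and rules were chosen with earlier results of these data known. Named genes were all members at an adjusted p under 0.05, the most abundant member of each cluster per kilobase in controls, and *Cnot3*. Genes of the imprint, IGF axis and other imprinted lists that passed either rule were named too. So was the most abundant marker of each cell type (per kilobase, mean of all libraries). Other genes that are named, such as *Gnasas1*, *Dnmt1*, *Uhrf1*, *Trim28*, *Irs2* and *Gpr1*, were chosen after their values were seen. GENCODE M21 (GRCm38, which is mm10) gave positions and exon lengths. Depth ranged from 22192964 to 43378493 reads per library, and with 2 libraries against 2 an exact two-sided permutation test of a single gene has a smallest p of 0.333. Adjusted p-values here therefore lean on a dispersion model shared between genes. Its common biological coefficient of variation was 0.145. Replicates differed by more than sampling noise (chi-square per degree of freedom 23.0 in controls and 7.26 in *Cnot3*-cKO). Alternatives were other scalings, filters, DESeq2 1.42.0, glmTreat, a replicate block and leaving out each library.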

Additional observations from a re-analysis of the deposited data

How the results depend on the processing

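Scaling by size factors as in DESeq2, and DESeq2 itself, left every count of calls within 1.5 times of the reported one, and upper quartile scaling did so too. With library size only, 2 members were called higher (*Gnas* and *Sgce*), and the median log2 fold change was 0.26 for all members and 0.13 for paternally expressed ones. Scaling to the pan-germ cell genes moved the median of all tested genes from 0.01 to 0.15, gave medians of 0.35 for the members, 0.20 for paternally and 0.47 for maternally expressed ones, and called 3 members higher (*Gnas*, *Sgce* and *Meg3*) and 96 of all genes lower. *Igf2r* turned to 0.0484 under that scaling. Without an expression filter 285 genes were called lower, and the medians were 0.10 for the members, 0.04 for paternally and 0.23 for maternally expressed ones. With a mean count of at least 50 the medians were 0.37 for the members and 0.34 for paternally expressed ones. These filters change which genes are tested. The glmTreat test of edgeR, set against 2-fold, called 87 genes higher and 5 lower, with 0 members higher and 0 lower. The lowest adjusted p of a member there was 0.0994, and 1 member (*Grb10*) had an unadjusted p under 0.05, while edgeR's main test and DESeq2 each called 1 member higher and 1 lower.

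Leaving out 1 library at a time, where the lone library of a group is assumed to vary like the others, called 943 to 1225 genes higher and 217 to 271 lower. Members called higher ranged from 1 to 4 and members called lower from 1 to 1. The 4 (*Gnas*, *Sgce*, *Plagl1* and *Meg3*) came without control replicate 1. Without control replicate 2, 2 members (*Sgce* and *Rtl1*) were called higher. Without *Cnot3*-cKO replicate 1, *Rtl1* was called in place of *Sgce*. *Grb10* was called lower in each of these. At an adjusted p under 0.05, 11 to 16 members were higher and 3 to 6 lower. Medians ranged from 0.18 to 0.27 for the members, from 0.14 to 0.19 for paternally and from 0.25 to 0.48 for maternally expressed ones. *Mcts2* turned to -0.0170 without *Cnot3*-cKO replicate 2, in a range from -0.0170 to 0.118. The cause of these shifts was not tested.

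Of 192 log2 fold changes of the 16 members that passed, over 12 alternatives each, 183 kept their direction and an adjusted p under 0.05, 9 kept the direction only, and 0 changed sign. For 10 of the 16 all alternatives kept both. Levels on plain library sizes differed by at most 2.90% from those printed. With the replicate block, 1155 genes were called higher and 217 lower, 1 member was called higher and 1 lower, and 17 and 4 members passed an adjusted p of 0.05. The block let *Snrpn*, *Plagl1*, *Zrsr1*, *Trappc9* and *Peg13* pass and lost no member. Libraries with the same number share only a number, and the correlation of the deviations of those numbered 1 was 0.07 over 16437 genes. Depth limits what can be said of the 5 members at 12 reads or fewer.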
